A study of Mus musculus with 83 samples.

Results

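The subunits of the respiratory chain and of the ATP synthase that are encoded in the nucleus were followed in the colon of aging male mice. A gene was a member if it was protein-coding and its symbol began with Ndufs, Ndufv, Ndufa, Ndufb or Ndufc (complex I, Ndufaf assembly factors left out), with Sdha to Sdhd (complex II), with Uqcr (complex III), with Cox4i or Cox5 to Cox8 (complex IV) or with Atp5 (complex V). Cyc1 of complex III and Cycs, cytochrome c itself, were added by name. This gave 91 of the 37764 genes in the count table, after 13 of 104 matching genes were dropped because they were not protein-coding. Complex I had 38 members, complex II 4, complex III 9, complex IV 18 and complex V 17, and cytochrome c was 1 further member. The remaining 4, Sdhaf1, Sdhaf2, Sdhaf3 and Sdhaf4, are assembly factors of complex II that share the letters Sdha and are no subunits. Usmg5 and Atpif1, a small protein of the ATP synthase and its inhibitor, carry other symbols in this annotation and were not members.

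The mice were males of the inbred strain C57BL/6J/Ukj that received no treatment and were kept only to age. Polyadenylated RNA of the colon was sequenced from groups of 16 mice aged 3, 9 and 15 months, from 17 mice aged 24 months and from 18 aged 28 months, and p-values measure the spread between these mice. The 3 library preparation batches all contained every age. The total count on genes ran from 23026370 to 75838290 per mouse. The 91 members took 1.38% to 1.96% of these counts (median 1.54%), and the genes of the mitochondrial genome 3.56% to 5.86%. The tissue label was met by its markers. All 7 epithelial markers, among them Epcam and Vil1, and all 6 markers each of absorptive colonocytes and of goblet cells had counts in every mouse, as had all 7 smooth muscle markers. Of 7 striated muscle markers 5 passed the filter on low counts, with Ckm at a median of 16.4 CPM and Acta1 at 8.01 and the other 5 at or below 0.430, and Myh4 had no count in 71 of the 83 mice. Of the 3 testis markers in the table (Prm1, Prm2 and Ldhc) none passed the filter. Because the tissue was sequenced in bulk, fewer cells of a type and less RNA per cell cannot be told apart in any result below.

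The respiratory chain passes electrons from NADH and succinate to oxygen and stores the energy as a proton gradient across the inner mitochondrial membrane, which the ATP synthase (complex V) then uses. Complex I (NADH dehydrogenase) and complex II (succinate dehydrogenase) feed electrons in, complex III hands them to the soluble carrier cytochrome c, and complex IV (cytochrome c oxidase) gives them to oxygen. All complexes but complex II also hold subunits encoded in the mitochondrial genome, so that both genomes contribute to them. Several small subunits of complex IV exist as paralogs, a widely expressed form and a form known from heart and skeletal muscle, testis or hypoxic cells. The absorptive cells at the surface of the colon are known to oxidize butyrate made by the microbiota, which makes the respiratory chain a main route of energy in this tissue.

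Genes of the nuclear respiratory chain are known for binding sites of the transcription factor NRF1 close to their start. RefSeq promoters of 300 bases, from 250 before to 50 after the start (build GRCm38.p6), were at hand for 74 members. On both strands, the letters GCGCANGCG (NRF1) occurred in 23 of the 74 (31.1%), against 7.03% of the promoters of 27025 genes and 13.3% of those of the 12162 genes tested below. The letters AAGATGGCG (YY1) occurred in 7 (9.46%, against 1.64% of all promoters and 3.03% of those of tested genes), and CCGGAAGT (ETS factors) in 5 (6.76%, against 4.31% and 7.85%). The letters CCCCGCCC (SP factors) occurred in 14 (18.9%, against 19.6% of all promoters and 34.8% of those of tested genes) and TATAAA in 8 (10.8%, against 15.7% and 9.97%). For ETS and TATAAA the direction thus turns with the promoters they are set against. A run of GCGCATGCGC reads as NRF1 on both strands and gives overlapping matches. A match describes the letters of a window and is not a shown binding site, and a window without a match says only that these letters are not in it. NRF1 matches were present in 7 of 15 complex V promoters, 8 of 33 of complex I, 2 of 3 of complex II, 2 of 5 of complex III and 1 of 13 of complex IV, that of Cox6a1. The 200 bases upstream of the RefSeq start are shown for members that the results turn on, with motif matches in capitals. The first are Cycs at chr6:50566570-50566769 (- strand), Atp5k at chr5:108434400-108434599 (- strand), Sdha at chr13:74350241-74350440 (- strand) and Cox6a1 at chr5:115348959-115349158 (- strand), which hold NRF1 letters.
Cycs: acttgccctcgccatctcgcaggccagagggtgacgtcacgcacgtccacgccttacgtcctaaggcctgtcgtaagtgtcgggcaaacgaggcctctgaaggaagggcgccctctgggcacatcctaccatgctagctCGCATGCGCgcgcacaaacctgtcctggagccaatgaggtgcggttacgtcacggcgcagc
Atp5k: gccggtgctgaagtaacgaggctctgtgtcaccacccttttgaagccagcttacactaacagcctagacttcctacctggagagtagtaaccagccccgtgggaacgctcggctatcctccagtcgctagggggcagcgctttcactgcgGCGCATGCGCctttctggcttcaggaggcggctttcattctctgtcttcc
Sdha: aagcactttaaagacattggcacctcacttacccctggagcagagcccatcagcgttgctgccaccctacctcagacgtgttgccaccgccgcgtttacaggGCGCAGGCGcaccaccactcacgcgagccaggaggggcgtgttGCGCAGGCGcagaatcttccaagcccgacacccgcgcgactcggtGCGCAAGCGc
Cox6a1: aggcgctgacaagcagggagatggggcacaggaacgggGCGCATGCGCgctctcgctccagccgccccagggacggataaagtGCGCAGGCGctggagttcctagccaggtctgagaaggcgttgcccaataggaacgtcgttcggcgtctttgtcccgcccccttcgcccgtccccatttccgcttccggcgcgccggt

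The second set pairs the 2 widely expressed subunits Cox6b1 and Cox7a2 with their restricted paralogs Cox6b2 and Cox7a1, which fell most at 28 against 3 months. They lie at chr7:30626115-30626314 (- strand), chr7:4753095-4753294 (- strand), chr9:79759854-79760053 (- strand) and chr7:30183971-30184170 (+ strand). Within these 200 bases CG dinucleotides numbered 13 in Cox6b1 and 8 in Cox6b2, and 12 in Cox7a2 and 4 in Cox7a1. The capitals in Cox6b2 are the SP letters on the reverse strand.
Cox6b1: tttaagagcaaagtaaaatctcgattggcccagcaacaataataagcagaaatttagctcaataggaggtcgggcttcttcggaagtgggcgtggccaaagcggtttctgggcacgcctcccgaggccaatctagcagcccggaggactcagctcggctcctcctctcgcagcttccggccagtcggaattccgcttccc
Cox6b2: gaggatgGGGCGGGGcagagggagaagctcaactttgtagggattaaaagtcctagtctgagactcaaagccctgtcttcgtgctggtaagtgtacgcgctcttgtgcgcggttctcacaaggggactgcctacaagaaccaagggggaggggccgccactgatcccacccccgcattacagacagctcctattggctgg
Cox7a2: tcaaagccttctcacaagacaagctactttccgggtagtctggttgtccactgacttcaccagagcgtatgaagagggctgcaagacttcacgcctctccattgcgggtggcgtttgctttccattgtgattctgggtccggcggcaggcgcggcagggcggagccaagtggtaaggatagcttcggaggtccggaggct
Cox7a1: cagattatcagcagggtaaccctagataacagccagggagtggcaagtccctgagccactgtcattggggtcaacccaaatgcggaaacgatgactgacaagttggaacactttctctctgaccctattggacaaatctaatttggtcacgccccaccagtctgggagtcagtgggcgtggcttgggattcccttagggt

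Members differed widely in level. On the TPM scale, which divides counts by gene length and is the only scale used here to compare genes, the median over 83 mice was highest for small subunits of complex IV, Cox8a with 1727 and Cox6a1 with 1516. The catalytic subunits of the ATP synthase, Atp5a1 with 1435 and Atp5b with 1212, followed. Cox4i1 reached 1149, Cox6b1 993, Uqcr10 of complex III 947 and Sdhd, a membrane anchor of complex II, 710. These neighbors lie close together, and the ranges over mice of Cox8a (1232 to 2108) and Cox6a1 (1228 to 2079) overlap almost fully. At the other end stood the restricted paralogs, with medians of 10.4 for Cox6b2, 4.75 for Cox4i2, 4.19 for Ndufa4l2 and 2.86 for Cox8b, and the assembly factor Sdhaf3 with 3.70. Cox7a1, known from heart and skeletal muscle, was higher with 99.8. Cox6a2, the muscle form of Cox6a1, had 110 counts in all mice together, Cox8c 3 and Cox7b2 1, and these 3 did not pass the filter, which leaves 88 members tested. The merged gene lengths of Ndufb2 and Ndufb7 include long exons of rare transcripts, which lowers their TPM.

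**Figure D1:**
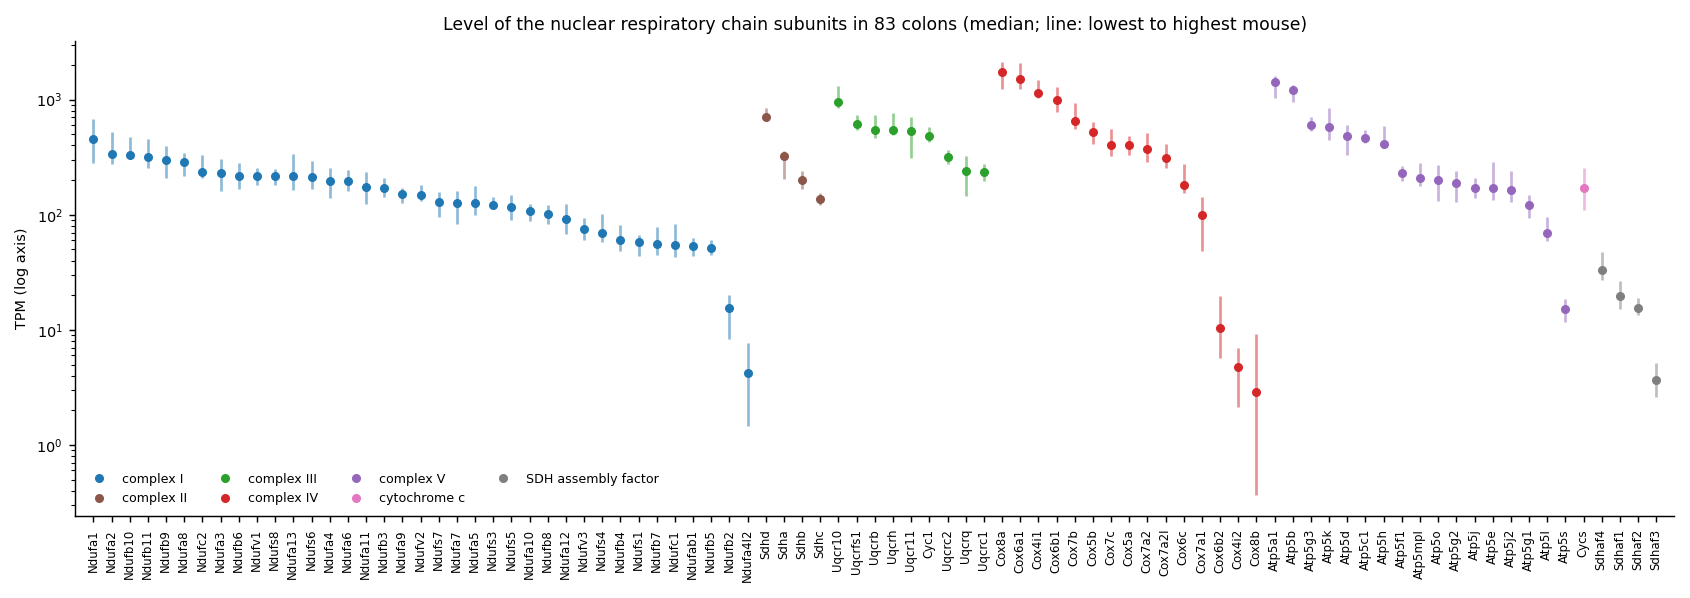
TPM on a log axis of 87 members that passed the low-count filter, ordered by complex and level, with a point for the median over 83 mice and a line from the lowest to the highest mouse. The highest median is 1727 TPM for Cox8a, and the restricted paralogs Cox6b2, Cox4i2, Ndufa4l2 and Cox8b lie at or below 10.4.

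The summed TPM of all members was divided by complex. The median over mice was 23.1% for complex I, 4.98% for complex II, 16.2% for complex III, 30.2% for complex IV and 24.6% for complex V. The share of complex I ranged from 21.8% to 24.3% over all mice that of complex IV from 28.9% to 32.1% and that of complex II from 4.28% to 6.07%. Cytochrome c took 0.624% (0.411% to 0.848%) and the 4 assembly factors 0.263%. Each share depends on the number of subunits as well as on their level, and the median level of a subunit was 150 TPM in complex I, 533 in complex III and 209 in complex V.

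The subunits also varied together from mouse to mouse. After age and batch were removed, Pearson's r of log2 CPM over the 83 mice had a median of 0.55 over 3828 pairs of members, against 0.00 over all pairs of tested genes. These correlations describe mice that share library and depth and carry no test. Within a complex the median r was 0.61 for complex I, 0.52 for complex II, 0.55 for complex III, 0.46 for complex IV and 0.56 for complex V. Atp5g3, a c-ring subunit of the ATP synthase, had the highest median r with the other members (0.72). The lowest belonged to Cox8b (-0.04), Sdhaf3 (-0.01), Ndufs1 (0.05), the largest subunit of complex I, and Sdha (0.11), the flavoprotein of complex II. Averaged over subunits, complexes I, III and V moved almost as a single set (r of 0.95 to 0.96). With complexes I, III and V, complex II had r of 0.73, 0.81 and 0.82 and complex IV 0.86, 0.75 and 0.77. Complex II and complex IV were related less closely to each other (r = 0.47). Members were not tied in this way to the 13 subunits encoded in mitochondrial DNA, with a median r of -0.07 over 1144 pairs. The mean of all members had r of 0.81 with the assembly factors, 0.39 with the tricarboxylic acid cycle, 0.35 with the epithelial markers, -0.33 with the regulators named below and -0.16 with the log2 total count. The assembly factor list also holds Sdhaf1, Sdhaf2, Sdhaf3 and Sdhaf4, so it is not separate from the members.

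Over the lifespan most members fell slightly. Of the 88 members tested, 59 had a slope in age past an adjusted p-value of 0.1 (edgeR's quasi-likelihood test, Benjamini-Hochberg adjustment over 18325 genes), 55 of them downward and 4 upward, over the study's 5 ages. Among all tested genes 53.2% had a called slope and 27.4% a called downward slope. The median slope was -0.00350 log2 units per month over the members and -0.000196 over all genes. By complex, downward slopes were called for 25 of 38 members of complex I, 3 of 4 of complex II, 5 of 9 of complex III, 9 of 15 of complex IV and 10 of 17 of complex V, and for Cycs. The 4 upward slopes were those of Ndufa4l2, Cox4i2, Cox7a2l and Sdhaf1. A test over all 5 ages without an order called 47 members (53.4%), close to the 54.9% of all genes. With colonocyte and smooth muscle marker scores as covariates, 35 slopes were called (3 upward, 32 downward) and 28 members over all ages.

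Mean log2 CPM over the subunits of a complex shows how small the shift is beside the spread between mice. For complex I the mean was 6.13 ± 0.09 (SD, n = 16) at 3 months, 6.16 ± 0.13 (n = 16) at 9 months, 6.15 ± 0.08 (n = 16) at 15 months, 6.10 ± 0.09 (n = 17) at 24 months and 6.06 ± 0.09 (n = 18) at 28 months. For complex V it was 7.62 ± 0.10, 7.65 ± 0.12, 7.64 ± 0.08, 7.58 ± 0.08 and 7.55 ± 0.08 at the same ages. All ages overlapped in every complex. The mean of all members differed by -0.07 between 28 and 3 months and by -0.09 between 28 and 15 months, about the SD of a single age. The lowest mouse was mouse 13 at 28 months and the highest mouse 10 at 9 months, in which members took 1.96% of counts.

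**Figure D2:**
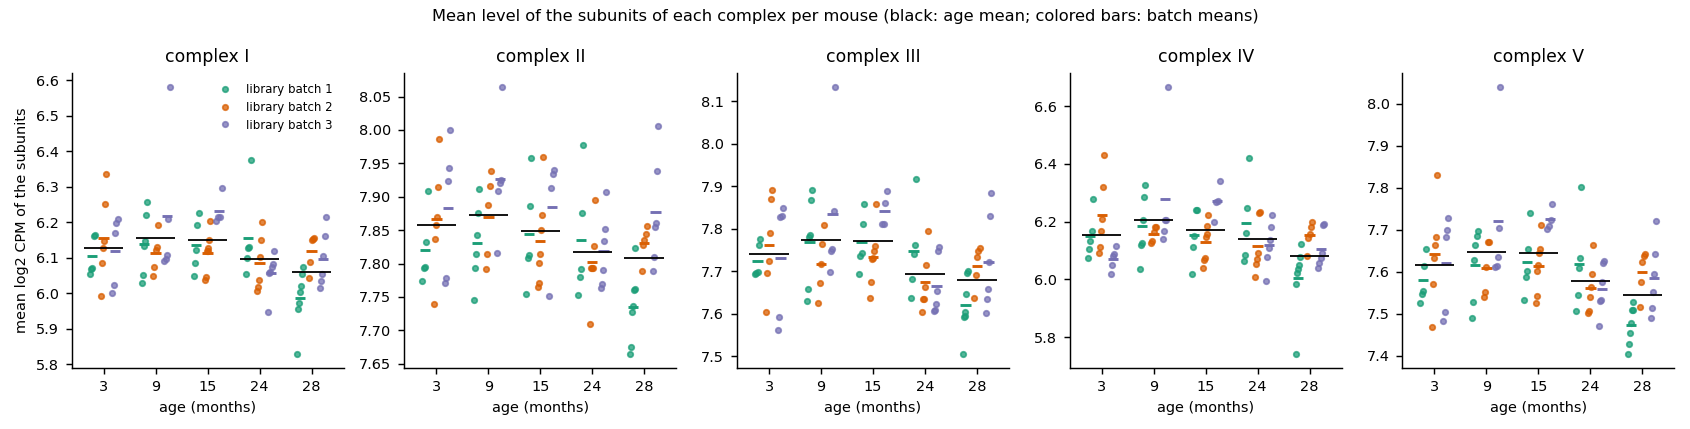
Mean log2 CPM of the subunits of complexes I to V in each of 83 mice (points, colored by library batch) against age in months, with a black bar at the mean of each age and colored bars at batch means. The mean of complex I is 6.13 at 3 months and 6.06 at 28 months, and the ages overlap in every panel.

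Between 28 and 3 months 37 of 88 members were called (42.0%), which is below the 49.4% of all tested genes. Of these, 33 were lower and 4 higher at 28 months. Lower calls made up 37.5% of the members and 25.9% of all genes. Their median log2 fold change was -0.07, against -0.01 over all genes, and 77 of 88 values were negative. Between 28 and 15 months 46 members were called (52.3%, against 42.4% of all genes), 44 of them lower (22.2% of all genes were called lower), with a median of -0.08 against -0.00. Both comparisons share the 28-month mice.

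**Figure D3:**
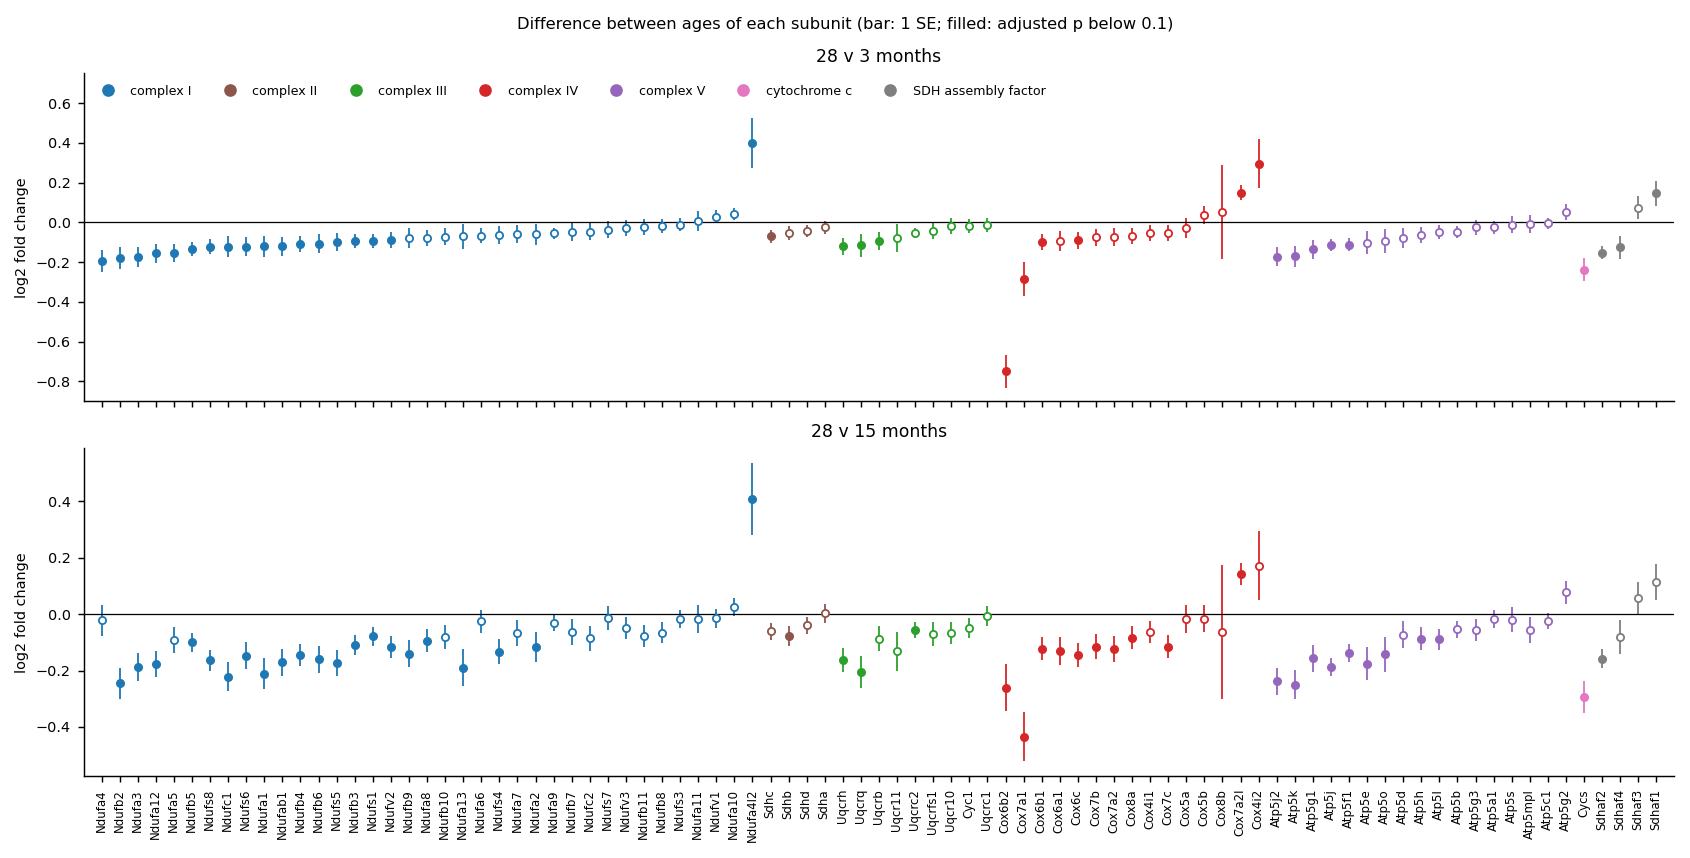
Log2 fold change of 87 members between 28 and 3 months (top) and between 28 and 15 months (bottom), ordered by complex, with bars of 1 SE and filled points where the adjusted p-value was below 0.1. Most points lie between -0.25 and 0, Cox6b2 lies at -0.75 in the top panel and Cox7a1 at -0.43 in the bottom panel, and Ndufa4l2 lies at 0.40 and 0.41.

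In complex I, 17 of 38 members fell and 1 rose at 28 against 3 months, and 20 fell and 1 rose at 28 against 15 months. Among all tested genes 25.9% and 22.2% were called lower. These counts go by symbol and include Ndufa4 and Ndufa4l2, which are described with the paralogs of complex IV below. The member that rose was Ndufa4l2 in both comparisons. Apart from Ndufa4 at 28 against 3 months, the largest falls were in accessory subunits, which surround the catalytic core. Ndufb2 had a median of 28.7 CPM (23.5 to 33.4) at 3 months, 29.4 (20.0 to 35.9) at 9 months, 30.7 (25.9 to 36.6) at 15 months, 27.0 (23.1 to 31.0) at 24 months and 26.8 (15.5 to 29.6) at 28 months. The ages overlapped throughout. Its log2 fold change was -0.18 (SE 0.05, adjusted p = 0.00582) at 28 against 3 months and -0.24 (SE 0.05, adjusted p = 0.00027) at 28 against 15 months. Ndufb2 overlaps another annotated gene, Gm42420, and its counts are less certain for that reason. Ndufc1 differed by -0.12 (adjusted p = 0.0497) and -0.22 (adjusted p = 0.000483), and Ndufa3 by -0.17 and -0.19. The first call of Ndufc1 was lost without the filter and with colonocyte and smooth muscle scores as covariates. Ndufab1, the mitochondrial acyl carrier protein, differed by -0.12 (adjusted p = 0.0373) and -0.17 (adjusted p = 0.00368), and with colonocyte and smooth muscle scores as covariates the first value was -0.07 and not called.

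Of the 7 core subunits of complex I that are conserved from bacteria, 3 fell in both comparisons, in which 25.9% and 22.2% of all genes were called lower. Ndufs8, which holds iron-sulfur clusters, had a median of 92.3 CPM (75.7 to 105) at 3 months, 95.8 (79.6 to 110) at 15 months and 86.0 (77.7 to 100) at 28 months. It differed by -0.12 (SE 0.04, adjusted p = 0.00558) at 28 against 3 months and by -0.16 (SE 0.04, adjusted p = 0.000362) at 28 against 15 months, with overlapping mice. Ndufs1 differed by -0.09 (adjusted p = 0.0209) and -0.08 (adjusted p = 0.0635), and with colonocyte and smooth muscle scores as covariates by -0.03 and -0.01, no longer past the threshold. Its call at 28 against 15 months was also lost with DESeq2, with its size factors and without the filter. The same held with 10 counts in every mouse, replicate numbers as a block and only the 2 ages. Ndufv2 was the other, with -0.09 and -0.12. The NADH-binding Ndufv1 had values of 0.03 (SE 0.03) and -0.01 (SE 0.03) and Ndufs7 of -0.04 (SE 0.04) and -0.02 (SE 0.04), neither of them called. At 28 against 3 months the median over the core was -0.04 and over the other 31 subunits -0.08.

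In complex II 1 of 4 subunits was called in each comparison, beside 49.4% and 42.4% of all genes. Sdha, which oxidizes succinate and carries 3 NRF1 matches in the promoter shown above, had a median of 442 CPM (407 to 493) at 3 months, 438 (277 to 480) at 15 months and 439 (399 to 476) at 28 months. Its log2 fold changes were -0.02 (SE 0.03) and 0.00 (SE 0.03), neither called, and the value of 277 CPM came from mouse 16 at 15 months, whose mitochondrial genes took 5.86% of counts. Sdhc, a membrane anchor, differed by -0.07 (SE 0.03, adjusted p = 0.0543) at 28 against 3 months and the iron-sulfur protein Sdhb by -0.08 (SE 0.04, adjusted p = 0.0862) at 28 against 15 months, each close to the threshold. The call of Sdhc was lost in 4 alternatives and that of Sdhb in 8. Among the assembly factors Sdhaf2, which attaches the flavin to Sdha, fell by 0.15 (SE 0.03, adjusted p = 8.31e-05) and by 0.16 (SE 0.03, adjusted p = 8.83e-05) in the 2 comparisons. Sdhaf4 was lower by -0.13 (adjusted p = 0.0755) and Sdhaf1 higher by 0.15 (adjusted p = 0.0592) at 28 against 3 months only, and Sdhaf3 was not called in either. The call of Sdhaf4 was lost with the size factors of DESeq2, without the filter and with 10 counts in every mouse. It was also lost with replicate numbers as a block and with only the 2 ages.

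In complex III, 3 of 9 members were lower in each comparison (33.3%, beside 25.9% and 22.2% of all genes called lower) and none was higher. Uqcrq, a small subunit near the quinone site, had a median of 144 CPM (121 to 182) at 3 months, 151 (135 to 182) at 15 months and 134 (85.8 to 154) at 28 months. It differed by -0.12 (SE 0.06, adjusted p = 0.0928) and -0.21 (SE 0.06, adjusted p = 0.00297), and the first of these calls was lost in 8 alternatives, DESeq2 and the covariates among them, with -0.08 without 3 outlying mice. Uqcrh, the hinge protein that contacts cytochrome c1, differed by -0.12 (adjusted p = 0.0165) and -0.16 (adjusted p = 0.00152). Uqcrb fell at 28 against 3 months and Uqcrc2 at 28 against 15 months. Cytochrome c1 itself, Cyc1, had values of -0.02 (SE 0.03) and -0.05 (SE 0.04), the Rieske protein Uqcrfs1 of -0.04 (SE 0.04) and -0.07 (SE 0.04) and Uqcrc1 of -0.01 (SE 0.04) in both, none of them called.

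Cytochrome c had the largest falls of any member after Cox6b2 and Cox7a1 at 28 against 3 months, and after Cox7a1 at 28 against 15 months. Cycs had a median of 201 CPM (162 to 266) at 3 months, 199 (160 to 263) at 9 months, 206 (177 to 283) at 15 months, 189 (155 to 244) at 24 months and 182 (116 to 224) at 28 months. The mice of all ages overlapped, and the 4 lowest 28-month mice were all of batch 1. The log2 fold change was -0.24 (SE 0.06, adjusted p = 0.000441) at 28 against 3 months and -0.29 (SE 0.06, adjusted p = 3.12e-05) at 28 against 15 months. Within batches 1, 2 and 3 it was -0.27, -0.11 and -0.28 in the first comparison and -0.34, -0.15 and -0.37 in the other.

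In complex V 5 of 17 members were lower at 28 against 3 months (29.4%, near the 25.9% of all genes called lower) and 9 at 28 against 15 months (52.9%, against 22.2%), with none higher. Atp5k (subunit e) had a median of 123 CPM (105 to 149) at 3 months, 129 (107 to 160) at 15 months and 107 (88.0 to 127) at 28 months. Its log2 fold change was -0.17 (SE 0.05, adjusted p = 0.00607) and -0.25 (SE 0.05, adjusted p = 0.000111). Atp5j2 (subunit f) had medians of 184, 189 and 162 CPM at the same ages and differed by -0.17 (adjusted p = 0.00205) and -0.24 (adjusted p = 4.48e-05). Atp5j, coupling factor 6, fell by 0.11 (SE 0.03, adjusted p = 0.00222) and by 0.19 (SE 0.03, adjusted p = 2.51e-06), the lowest adjusted p-value of any member at 28 against 15 months. The catalytic Atp5b had a median of 1723 CPM at 3 months and 1642 at 28 months, with values of -0.05 (SE 0.03) in both comparisons, and Atp5a1 of -0.03 and -0.02 (SE 0.03), none of them called.

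The largest changes of all lay in paralogous subunits of complex IV. Cox6b2, known as the testis form of subunit VIb, had a median of 5.08 CPM (4.23 to 7.38) at 3 months, 4.36 (3.35 to 7.39) at 9 months, 3.75 (3.10 to 4.597) at 15 months, 3.35 (2.70 to 4.53) at 24 months and 3.14 (2.04 to 4.04) at 28 months. Every 28-month mouse lay below every 3-month mouse, and neighboring ages overlapped. The log2 fold change was -0.75 (SE 0.08, adjusted p = 3.58e-12) at 28 against 3 months, -0.26 (SE 0.08, adjusted p = 0.00935) at 28 against 15 months and -0.49 (SE 0.08, adjusted p = 1.18e-05) at 15 against 3 months. The slope was -0.0287 log2 units per month (SE 0.00278, adjusted p = 1.99e-14). Within batches 1, 2 and 3 the value at 28 against 3 months was -0.81, -0.79 and -0.56. Its share of the summed TPM of Cox6b1 and Cox6b2 went from a median of 1.37% at 3 months to 0.922% at 28 months. The log2 ratio of Cox6b2 to Cox6b1 differed by -0.63 (permutation test within batches, p = 1e-05, the smallest 100000 resamples can give, adjusted p = 7e-05 over 14 ratio tests). Testis markers were at or near 0, since Prm2 had no count in 82 of the 83 mice, Ldhc in 68 and Prm1 in 35, and their summed level was at most 0.208 CPM.

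Cox7a1, known as the heart and skeletal muscle form of subunit VIIa, was lowest in the oldest mice. Its median was 17.7 CPM (10.97 to 21.9) at 3 months, 19.6 (16.3 to 28.4) at 9 months, 19.3 (13.8 to 23.1) at 15 months, 16.5 (10.9 to 23.7) at 24 months and 12.97 (8.32 to 18.8) at 28 months. The oldest mice lay lowest and overlapped every other age. It differed by 0.26 (SE 0.09, adjusted p = 0.0721) at 9 against 3 months, with 0.15, 0.04 and 0.66 in batches 1, 2 and 3, and this call was lost without the filter, with only the 2 ages, at a threshold of 0.05, with colonocyte and smooth muscle scores as covariates and without mouse 10 at 9 months. It differed by -0.55 (SE 0.09, adjusted p = 7.38e-07) at 28 against 9 months, -0.43 (SE 0.09, adjusted p = 5.21e-05) at 28 against 15 months and -0.28 (SE 0.09, adjusted p = 0.00607) at 28 against 3 months. The last value was -0.56 in batch 1, -0.26 in batch 2 and 0.09 in batch 3, so it did not hold within batch 3. At 28 against 15 months the batches gave -0.63, -0.22 and -0.43. The ratio of Cox7a1 to the widely expressed Cox7a2 differed by -0.34 at 28 against 15 months (permutation test, adjusted p = 0.000476) and by -0.21 at 28 against 3 months (adjusted p = 0.0713), with 0.12 in batch 3 alone.

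The third gene of that family, Cox7a2l, known for joining complexes III and IV in supercomplexes, rose. Its median was 149 CPM (130 to 169) at 3 months, 154 (128 to 191) at 9 months, 145 (135 to 199) at 15 months, 145 (133 to 168) at 24 months and 165 (149 to 194) at 28 months. The rise came after 24 months, with overlapping mice. The log2 fold change was 0.16 (SE 0.04, adjusted p = 0.00464) at 28 against 24 months, 0.15 (SE 0.04, adjusted p = 0.00137) at 28 against 3 months and 0.14 (SE 0.04, adjusted p = 0.00327) at 28 against 15 months. The last value was 0.21 in batches 1 and 2 and -0.00 in batch 3, where it was absent, while the other values were positive in each batch. Of the summed TPM of Cox7a1, Cox7a2 and Cox7a2l, Cox7a2l made up a median of 39.5% at 24 months and 43.8% at 28 months, and Cox7a1 12.7% and 10.03%. The median share of Cox7a2 lay between 46.5% at 28 months and 48.4% at 24 months.

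**Figure D4:**
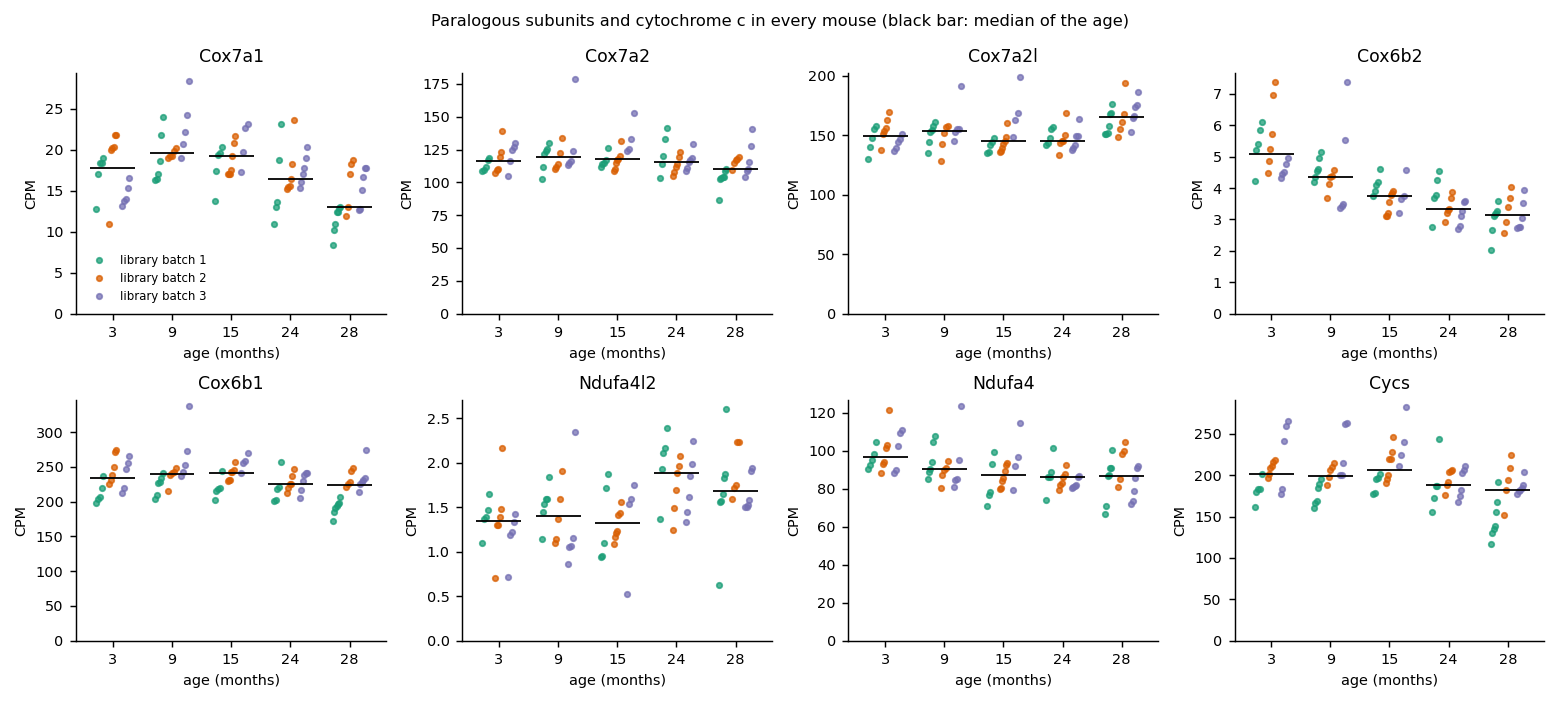
CPM in each of 83 mice against age in months for Cox7a1, Cox7a2, Cox7a2l, Cox6b2, Cox6b1, Ndufa4l2, Ndufa4 and Cycs, colored by library batch, with a bar at the median of each age. Cox6b2 drops from 5.08 to 3.14 CPM with no overlap between 3 and 28 months, Cox7a1 is lowest and Cox7a2l highest at 28 months, and Cox6b1 overlaps at all ages.

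Other subunits of complex IV fell slightly or were not called. Cox6b1 differed by -0.10 (SE 0.04, adjusted p = 0.0361) at 28 against 3 months and by -0.12 (SE 0.04, adjusted p = 0.0119) at 28 against 15 months. The call at 28 against 3 months was lost with colonocyte and smooth muscle scores as covariates (-0.07) and with only the 2 ages (-0.08). Cox6a1 had values of -0.09 (not called) and -0.13 (adjusted p = 0.0341) and Cox8a, the subunit with the highest TPM, of -0.07 (not called) and -0.08 (adjusted p = 0.0942), a call that was lost in 8 alternatives, DESeq2 among them, with -0.05 without 3 outlying mice. Cox4i1 and Cox5a, which contact the catalytic core, were not called, with -0.05 (SE 0.04) and -0.06 (SE 0.04) for Cox4i1 and -0.03 (SE 0.05) and -0.02 (SE 0.05) for Cox5a. Cox8b, known from muscle and brown fat, had medians between 0.279 and 0.357 CPM and was called at 24 against 3 months alone, where it was higher by 0.59 (SE 0.23, adjusted p = 0.0512).

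Paralogs known from hypoxic cells and vessel walls rose. Ndufa4l2 had a median of 1.35 CPM (0.706 to 2.17) at 3 months, 1.41 (0.858 to 2.34) at 9 months, 1.32 (0.520 to 1.87) at 15 months, 1.88 (1.24 to 2.39) at 24 months and 1.68 (0.624 to 2.60) at 28 months. The older mice lay higher with wide overlap. The log2 fold change was 0.47 (SE 0.13, adjusted p = 0.0143) at 24 against 15 months, 0.40 (SE 0.13, adjusted p = 0.00809) at 28 against 3 months and 0.41 (SE 0.13, adjusted p = 0.00891) at 28 against 15 months, and it was positive in each batch of the last 2 comparisons. Ndufa4, now regarded as a subunit of complex IV, differed by -0.19 (SE 0.05, adjusted p = 0.00211) at 28 against 3 months, and the log2 ratio of Ndufa4l2 to Ndufa4 by 0.57 (permutation test, adjusted p = 0.000187). Cox4i2, the form of subunit IV induced by low oxygen, had medians of 1.11 CPM (0.688 to 1.51) at 3 months and 1.35 (0.541 to 1.82) at 28 months and differed by 0.29 (SE 0.12, adjusted p = 0.0451). With colonocyte and smooth muscle scores as covariates Cox4i2 differed by 0.20 and was not called.

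Summed markers of vessel cells were also higher in old mice, but those of some other cells were too. All 5 pericyte markers passed the filter, Rgs5 with by far the highest median over mice (360.6 CPM). Their summed level had a median of 424.7 CPM (180 to 504) at 3 months and 461.8 (392 to 529) at 15 months. It was 487.8 (384 to 589) at 24 months and 475.3 (361 to 592) at 28 months. All 5 endothelial markers passed as well, with 109.2 CPM (97.8 to 119) at 3 months and 114.9 (69.2 to 137) at 15 months. Their median was 134.4 (125.5 to 148.8) at 24 months and 136.8 (107 to 157) at 28 months. The 6 fibroblast markers had 1022 CPM (641 to 1365), 966.7 (550 to 1231), 1109 (642 to 1313) and 944.3 (629 to 1261) at these ages. Their median was highest at 24 months and was not higher at 28 than at 3 months. The macrophage markers had a summed median of 152.8 CPM at 3 months and 197.5 at 28 months. For the adipocyte markers it was 36.04 and 62.02, and for the B cell markers, which went the other way, 28.95 and 16.76. After age and batch were removed, Ndufa4l2 had r of 0.44 with the pericyte markers, 0.42 with the endothelial markers and 0.60 with the fibroblast markers over 83 mice, and Cox4i2 had 0.38, 0.30 and 0.49. These values were not particular to vessel cells. Ndufa4l2 had 0.47 with striated muscle, 0.44 with smooth muscle, 0.43 with macrophages and 0.41 with epithelium. Its lowest value was -0.01 with B cells. Cox4i2 was highest with macrophages (0.52) and lowest with colonocytes (-0.12). Cox8b had 0.64 with the pericyte markers, 0.62 with the smooth muscle markers and 0.52 with the adipocyte markers. Cox7a1 had -0.02 with pericytes, 0.12 with smooth muscle, 0.06 with striated muscle and 0.29 with fibroblasts, and Cox6b2 had 0.45 with striated muscle. The part of these cells in the changes of the paralogs was not tested.

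The c-ring of the ATP synthase is made from 3 genes that code for the same mature protein. Of their summed TPM, Atp5g3 made up a median of 65.8%, Atp5g2 20.7% and Atp5g1 13.3% over 83 mice. Atp5g1 had a median of 202 CPM (166 to 244) at 3 months and 185 (148 to 217) at 28 months and differed by -0.14 (SE 0.05, adjusted p = 0.0159). Atp5g3 had -0.03 (SE 0.04) and Atp5g2 0.05 (SE 0.04), neither called. The log2 ratio of Atp5g1 to Atp5g3 differed by -0.11 at 28 against 3 months (permutation test, adjusted p = 7e-05) and by -0.10 at 28 against 15 months (adjusted p = 0.000315), negative in each batch. The ratio of Atp5g2 to Atp5g3 differed by 0.12 at 28 against 15 months (adjusted p = 0.00688).

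Between neighboring ages few members were called. At 9 against 3 months 2 were called (8.69% of all genes), Cox7a1 upward and Cox6b2 downward by 0.23. At 15 against 9 months none of 88 was called by edgeR's quasi-likelihood test (0.431% of all genes), with 2 members and 1683 of all genes at an unadjusted p below 0.05 and 1 member called with the covariates above. At 24 against 15 months 14 were called (15.9%, against 13.5% of all genes), 13 lower and only Ndufa4l2 higher. The largest fall was that of Ndufb2, by 0.16 (adjusted p = 0.0576). At 28 against 24 months 4 were called (11.7% of all genes), Cox7a1, Ndufc1 and Atp5k lower and Cox7a2l higher. Over longer spans, 2 were called at 15 against 3 months (7.75% of all genes), namely Cox6b2 and Ndufa4, and 11 at 24 against 3 months (34.5% of all genes). At 24 against 9 months 18 were called (15.5% of all genes), Cox6b2 with the largest fall (0.39), and at 28 against 9 months 53 (40.0% of all genes), 50 lower and 3 higher. The count at 24 against 15 months was 5 without mouse 16 at 15 months, and that at 24 against 9 months was 9 without mouse 10 at 9 months and 30 without mouse 13 at 28 months.

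Curvature over the 5 ages (quadratic to quartic terms) was called for 9 members (10.2%), fewer than the 16.2% of all genes. They were Cox7a1 (adjusted p = 0.00238), Atp5j (adjusted p = 0.00422), Ndufc1, Cox7a2l, Ndufa1, Atp5k, Sdhaf2, Atp5j2 and Cycs. Several share a course, in that their medians were level or slightly higher up to 15 months and lowest at 28 months. Ndufc1 had medians of 26.1, 28.4, 29.1, 26.9 and 25.6 CPM from 3 to 28 months, and Atp5j 178, 179, 187, 174 and 165. Sdhaf2 had 38.4, 36.4, 38.5, 35.5 and 34.2.

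Library batches did not give the same size of change. At 28 against 15 months the median over members was -0.11 in batch 1, 0.00 in batch 2 and -0.14 in batch 3, and in batch 2 the fall was not seen over the members as a whole. At 28 against 3 months the medians were -0.08, -0.04 and -0.02, and at 24 against 15 months 0.02, -0.03 and -0.20. Of the 44 members called lower at 28 against 15 months, 34 were lower in all 3 batches, and of the 33 at 28 against 3 months, 29 were. These calls were made on the same mice, so the shared sign is no separate test of them. Whether called or not, 38 of the 88 members were lower in every batch in the first comparison and 47 in the other. The share of all called genes with a shared sign was not set beside these counts. Terms for age within batch, added after the data were seen, were called for no member by edgeR's quasi-likelihood test. Unadjusted p-values for these terms over all ages were below 0.05 for 23 members (26.1%), against 3.78% of all genes.

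Fold change followed the length of the coding sequence. At 28 against 15 months, of 22 members with up to 300 coding bases 16 were called lower (median log2 fold change -0.13), and of 12 with over 900 bases 2 were (median -0.04). Spearman's rho of coding length and log2 fold change was 0.45 over the 88 members (0.13 over other genes) and 0.35 at 28 against 3 months (0.05 over other genes). This is a correlation across genes, which are not independent replicates. The same order was present among other protein-coding genes, of which 40.4% with up to 300 bases and 20.9% with over 900 bases were called lower (medians -0.10 and 0.00). Within the shortest class 72.7% of members were called lower beside these 40.4%, and in the class just under the longest 55.6% of members beside 27.3% of other genes. In the longest class the order turned, with 16.7% of members beside 20.9% of other genes. At 28 against 3 months members lay below other genes in the longest class (8.33% beside 27.1%) and in the middle class (25% beside 32.2%). In all other classes of both comparisons the share was higher among members. Why short genes were lower was not tested.

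**Figure D5:**
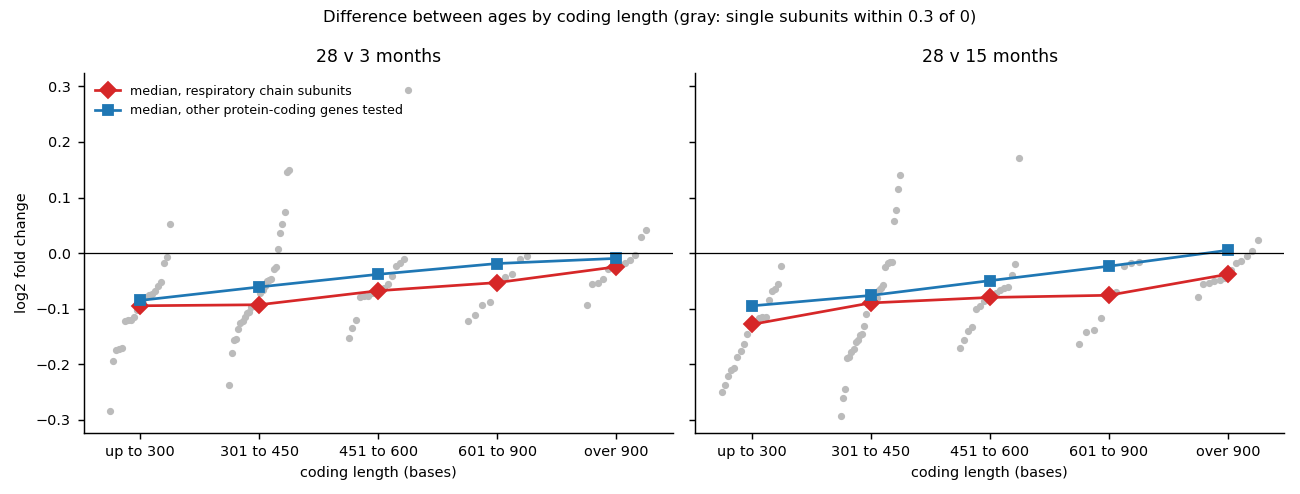
Log2 fold change against classes of coding length in bases, at 28 against 3 months (left) and at 28 against 15 months (right), with the median of respiratory chain members (diamonds) and of other protein-coding genes (squares) and gray points for single members within 0.3 of 0. Both medians rise with length, from -0.13 to -0.04 for members and from -0.10 to 0.00 for other genes in the right panel. Cox6b2 and Ndufa4l2 (left) and Cox7a1 and Ndufa4l2 (right) lie beyond the axis and are not drawn.

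Calls were also counted by promoter letters. Of 23 members with NRF1 letters 7 were lower at 28 against 3 months and 10 at 28 against 15 months, and of 50 tested members without them 21 and 28. The median log2 fold change at 28 against 3 months was -0.07 in both sets. Of 7 members with YY1 letters 4 were lower at 28 against 3 months (median -0.11) and 5 at 28 against 15 months (median -0.15), and of 66 without them 24 (median -0.07) and 33 (median -0.09). These counts carry no test. Cycs and Atp5k, which fell, and Sdha, which had a value of -0.02, all carry NRF1 letters in the sequences shown above.

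Neighbors of the respiratory chain were taken from fixed lists. Among all tested genes 25.9% were called lower at 28 against 3 months and 22.2% at 28 against 15 months. Of 44 assembly factors, 29 were lower and 4 higher at 28 against 3 months, with a median of -0.14, and 28 were lower and 4 higher at 28 against 15 months. This list includes Sdhaf1, Sdhaf2, Sdhaf3 and Sdhaf4, which are also members. Timmdc1, needed for complex I, differed by -0.32 (adjusted p = 1.4e-09) and Ndufaf4 by -0.34 (adjusted p = 0.000684) at 28 against 3 months, and Ttc19, needed for complex III, was higher by 0.19 (adjusted p = 7.06e-05). Ndufaf2 had the largest fall at 28 against 15 months, with a log2 fold change of -0.35, and Ttc19 the largest rise, with 0.16. Of 16 genes of the tricarboxylic acid cycle, 9 were lower in each comparison and none higher, Dlst by -0.19 (adjusted p = 3.65e-07) at 28 against 3 months. The 13 subunits encoded in mitochondrial DNA did not share this direction. At 28 against 3 months 4 were higher, mt-Co2 by 0.38 (adjusted p = 0.0298) and mt-Nd1 by 0.21 (adjusted p = 1.35e-05) among them, and mt-Nd2 was lower by -0.12 (adjusted p = 0.0104), with a median of 0.15 over the list. At 28 against 15 months 1 was higher (mt-Nd1, 0.10) and 2 lower (mt-Nd2, -0.16, and mt-Cytb, -0.08), with a median of -0.02. In either direction 49.4% of all tested genes were called at 28 against 3 months and 42.4% at 28 against 15 months.

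Of 15 regulators of these genes, 5 were lower and 1 higher at 28 against 3 months, which is 40.0% called beside 49.4% of all genes. Pprc1, a coactivator of the PGC-1 family, differed by -0.32 (SE 0.08, adjusted p = 0.00139), the mitochondrial DNA polymerase Polg by -0.21 (adjusted p = 1.44e-08) and the nuclear receptor Esrra by -0.15 (adjusted p = 0.000822). Esrrg was higher by 0.20 (adjusted p = 0.091). The coactivator Ppargc1a had 0.00 (SE 0.08) and Nrf1, whose letters were searched above, -0.04 (SE 0.04), neither called. At 28 against 15 months 5 were lower and none higher, where 42.4% of all genes were called. Among them were Pprc1 with -0.20 and Tfam, which packages mitochondrial DNA, with -0.12 (adjusted p = 0.00165).

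Other cell markers moved between ages as well. The 6 goblet cell markers had a summed median of 34330 CPM (28910 to 39010) at 3 months, 40640 (20820 to 50680) at 15 months and 27140 (24000 to 34200) at 28 months. The 6 colonocyte markers had 8787 CPM (7071 to 11480) at 3 months, 9091 (7772 to 11340) at 15 months and 8383 (6195 to 13590) at 28 months. The 7 smooth muscle markers had 3710 (886 to 5425), 4191 (3418 to 4805) and 4065 (2665 to 4950). With the colonocyte and smooth muscle scores as covariates 26 members were called at 28 against 3 months (22 lower) and 39 at 28 against 15 months (36 lower). The share of all genes called with these covariates was not set beside these counts. The part of goblet cells in these changes was not tested.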

How the data were processed

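RNA of the colon of 83 male mice was measured by polyadenylated, stranded RNA-seq with paired reads. Per the labels and the study's methods, the authors trimmed reads with cutadapt 2.8, aligned them to GRCm38 with HISAT2 2.1.0, kept unique alignments with SAMtools 1.9 and counted read pairs per gene with featureCounts (Subread 2.0.1). The deposited counts are whole numbers without normalization, with 1 column per mouse and no pooling. Positions, types and merged exon lengths of 37652 of 37764 genes were taken from GENCODE M21, an earlier release of GRCm38 than the authors used.

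Counts were tested in R 4.3.3 using edgeR 4.0.16. Low counts were removed by filterByExpr on age group (18325 genes left), libraries were normalized with TMM, and the model held age group and library batch over all mice. Each pair of ages, a slope in months, the 4 age terms together and the quadratic to quartic terms were tested with the quasi-likelihood F-test, with Benjamini-Hochberg adjustment over all genes and a threshold of 0.1. CPM are counts relative to the TMM-scaled library, and log2 CPM used a prior count of 2. TPM came from the counts and merged exon lengths. The 14 tests of log2 ratios between paralogs were two-sided permutation tests with 100000 resamples within batches. The total count was 23026370 to 75838290 per mouse, and counting error weighs most on paralogs of low level such as Cox8b. The method was checked on simulated counts. Python 3.11.15, numpy 2.4.6, pandas 2.3.3 and matplotlib 3.10.9 were used.

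The members and the gene, marker and motif lists were chosen with earlier results of these data known. Members named are, per complex, up to 2 rises and 2 falls among calls at 28 against 3 and 28 against 15 months, the largest rise and fall in other pairs, core subunits and paralogs whatever their values, and the extremes of related lists. Ndufa1, Ndufa3, Ndufv2, Uqcrb, Uqcrc2, Atp5j, Polg, Esrra, Esrrg, Tfam, Ppargc1a, Nrf1, Timmdc1 and mt-Cytb were named after their values were seen. Alternatives were DESeq2 1.42.0, its size factors, no filter, 10 counts in every mouse, no batch term, replicate numbers as a block, marker scores as covariates, only the 2 ages, a threshold of 0.05, single batches and single mice left out. Terms of age within batch and the removal of 3 outlying mice were added after the data were seen. The labels give each sample as a replicate of its age. The values of 1 member are not reported here.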

Additional observations from a re-analysis of the deposited data

How the results depend on the processing

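At 28 against 15 months (46 called) the counts were 40 with DESeq2 and with its size factors, 37 without a filter, 42 with 10 counts in every mouse, 43 without batch, 45 with only the 2 ages and 38 at 0.05, and at 28 against 3 months (37 called) 33, 32, 27, 32, 36, 28 and 27. With the replicate block they were 41 and 30. Same-numbered mice did not deviate together (median r 0.01 over 161 pairs, 27 above 0.1, own number the best match in 17 of 322 cases). The labels do not say whether the numbers mark anything shared, and these values cannot decide it. With colonocyte and smooth muscle scores as covariates the calls were 28 over all ages, 35 for the slope, 1 at 9 against 3 and at 15 against 9 months, 6 at 24 against 15, 5 at 24 against 3, 3 at 24 against 9 and 33 at 28 against 9 months. Without a filter they were 0 at 9 against 3, 4 at 24 against 15, 2 at 28 against 24, 6 at 24 against 3 and 8 at 24 against 9 months, and at a threshold of 0.05 they were 0, 7, 2, 5 and 5. With only the 2 ages 0 were called at 9 against 3 months. Without mice 13 (28 months), 10 (9 months) and 16 (15 months), removed after seeing the data, 41 were called at 28 against 15, 36 at 28 against 3, 7 at 28 against 24 and 8 at 24 against 9 months. With each of these 3 mice left out singly the counts ran from 40 to 47 over all ages, from 53 to 54 for the slope, from 39 to 48 at 28 against 9, from 1 to 2 at 9 against 3 (1 without mouse 10 at 9 months), from 5 to 14 at 24 against 15 (5 without mouse 16 at 15 months), from 9 to 30 at 24 against 9 (9 without mouse 10 at 9 months, 30 without mouse 13 at 28 months), from 8 to 16 at 24 against 3, from 36 to 44 at 28 against 15 and from 28 to 39 at 28 against 3 months. Within batches the median over members was 0.0037 at 28 against 15 months in batch 2, 0.024 and -0.20 at 24 against 15 months in batches 1 and 3, -0.14 at 28 against 24 and 0.048 at 24 against 3 months in batch 1. The ratio of Cox7a1 to Cox7a2 at 28 against 3 months reversed to 0.12 in batch 3. On the CPM scale, which weights long genes, the shares of the members' sum were 20.6% for complex I, 6.61% for II, 13.2% for III, 19.3% for IV, 38.7% for V, 1.24% for cytochrome c and 0.443% for the assembly factors. With the median over members in place of the mean, the score of complex V differed by -0.21 at 28 against 15 months. Single batches and the threshold of 0.05 are not in the following counts. Of the values of named members, 907 kept their side of the threshold, 61 lost the call, 14 gained it and no called value changed sign. Within single batches the sign of a called value could change, as for Cox7a1 at 28 against 3 months in batch 3. Of the 907, 44 changed sign, all of them values that were not called, such as Cox8b at 28 against 3 months (-0.146 to 0.102) and Sdha at 28 against 15 months (-0.031 to 0.063). The cause of these differences was not tested. The counts of calls in this section were not set beside the share of all genes called in the same setting. Depth limits the paralogs below 2 CPM most.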
